A study of Mus musculus with 4 samples.

Results

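The GIMAP genes (GTPases of immunity-associated proteins) were examined in regulatory T cells (Tregs) of the mouse liver, as the 8 rows of the deposited table whose symbols, written there in capitals, are GIMAP1, GIMAP3, GIMAP4, GIMAP5, GIMAP6, GIMAP7, GIMAP8 and GIMAP9, out of 24452 listed genes. They are written below as mouse genes, Gimap1 to Gimap9. The RNA-sequencing libraries came from young mice of 2 genotypes, Altre-KO and Altre-WT, with 2 libraries each and 4 in all. Altre is a long non-coding RNA of Tregs according to the series title, and the comparison asks which transcripts differ in Tregs that lack it. The labels call the cells raw Tregs from liver, and give no strain, sex, exact age, sorting gate or way of knocking Altre out. Whether each library stands for its own mouse is not stated, so the spread between these libraries may be technical. The p-values rest largely on that spread as pooled over all genes (20.8 prior degrees of freedom), and less on the spread of each gene itself. The Altre transcript was not analysed here, and the genotype labels were taken as given.

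GIMAP proteins are GTP-binding proteins found mainly in lymphocytes and other blood cells, where they sit on or near the membranes of organelles such as lysosomes, mitochondria and the endoplasmic reticulum. Their genes lie side by side in 1 cluster, and several are needed for T cells to survive outside the thymus. Loss of Gimap5 in mice and rats leaves too few peripheral T cells, and members have been linked to the BCL2 proteins that decide on cell death and, for GIMAP6, to the ATG8 proteins of autophagy.

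In GRCm38 with the GENCODE M21 annotation, the 8 protein-coding genes spanned 123.6 kb of chromosome 6 (48647234 to 48770851), in the order Gimap8, Gimap9, Gimap4, Gimap6, Gimap7, Gimap1, Gimap5 and Gimap3. Gimap6 and Gimap3 were on the minus strand and the other 6 on the plus strand. What these proteins share is the pocket that binds the nucleotide, and each of the 8 coding sequences held a stretch that encodes its phosphate-binding loop (P-loop). The 24 coding bases of that loop are shown for Gimap3 and Gimap5, the pair described next, and for Gimap4 and Gimap6 as other abundant members, from the GENCODE M21 transcripts, 5′ to 3′, with the bases of its last 3 codons, which include the lysine codon, in capitals. Gimap8 encoded 3 such loops in 1 coding sequence of 2064 bases and the other 7 genes encoded 1 each. All of these stretches lay within a single coding exon.
Gimap3 (chr6:48765887-48765910, minus strand): ggcaaatctggctgcGGTAAAAGC
Gimap5 (chr6:48752594-48752617, plus strand): ggcaaatctggctgcGGTAAAAGC
Gimap4 (chr6:48690421-48690444, plus strand): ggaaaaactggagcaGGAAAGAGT
Gimap6 (chr6:48702750-48702773, minus strand): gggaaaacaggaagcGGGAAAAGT

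Gimap3 and Gimap5 had the same 24 bases, letter for letter. Over 895 aligned coding bases these neighbours were 90.7% identical, and their transcripts shared an unbroken run of 140 bases. The other 20 pairs of members that leave out the longer Gimap8 were 57.9% to 68.8% identical. No other pair of the 27 remaining shared a run longer than 17 bases. The split of reads between Gimap3 and Gimap5 is therefore uncertain where reads fall in shared stretches, and their separate values carry that limit. Gimap1 is overlapped on the opposite strand by Gimap1os, and Gimap7, Gimap1 and Gimap5 by the annotated gene Gm28053 on the same strand. Neither of those overlapping genes is a row used here, the labels do not state strand use, and reads of overlapping genes cannot be told apart.

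Levels are given in CPM, in which the reads on listed genes are scaled to the same total in every library. Reads on listed genes, estimated from the smallest step between values, numbered 1828767 to 3266124 per library, and the 8 genes together took 18976 and 10255 estimated reads in the Altre-KO libraries and 8097 and 11070 in the Altre-WT libraries. Altre-KO replicate 1 stood apart from the others in the share of its reads that lay on listed genes, 32.8%, against 21.5% in Altre-KO replicate 2 and 18.8% and 20.6% in the Altre-WT libraries. Treg and CD4 T cell markers summed to 2688 and 2800.1 CPM in Altre-KO and to 2840 and 2815 CPM in Altre-WT. Of these, Foxp3, the lineage factor of Tregs, was at 79.5 and 162 CPM in Altre-KO and at 160.4 and 140.5 CPM in Altre-WT. Cd3e, Il2ra and Ikzf2 were also lowest in Altre-KO replicate 1, Cd3d was highest in it, and Cd4 and Ctla4 lay in between. Ikzf2 alone gave 1226 and 1272 CPM of the sum in Altre-KO and 1236 and 1253 CPM in Altre-WT.

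**Figure D1:**
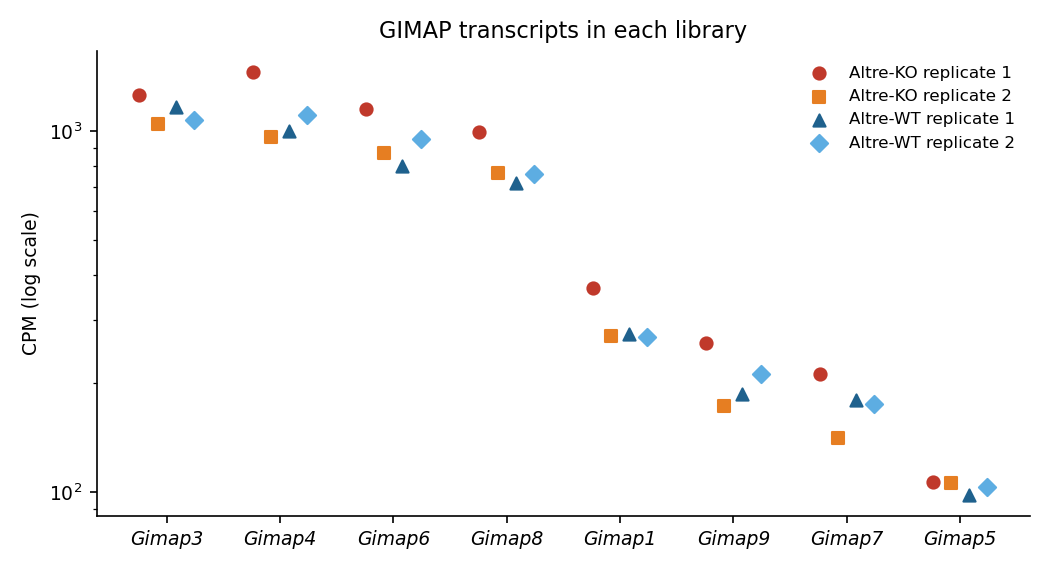
CPM of each GIMAP transcript on a log axis, with 1 point per library and Altre-KO left of Altre-WT for every gene. Altre-KO replicate 1 (red circles) is the highest point for all 8 genes, while Altre-KO replicate 2 lies among or near the Altre-WT libraries.

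The GIMAP genes were among the more abundant transcripts of these Tregs, and none of the 8 passed the test between genotypes. Together they summed to 5809.95 and 4342 CPM in Altre-KO and to 4428 and 4653 CPM in Altre-WT. The family thus took 0.581% and 0.434% of the listed reads in Altre-KO, against 0.443% and 0.465% in Altre-WT. Genotype means were 5076 ± 1038 CPM in Altre-KO and 4540.4 ± 159.6 CPM in Altre-WT (SD, n = 2 each), a ratio of 1.12, and the genotypes overlapped. The 2 Altre-KO libraries lay on either side of both Altre-WT libraries, and without Altre-KO replicate 1 the log2 ratio of the sums was -0.06. In bulk RNA, fewer cells of a type and less RNA per cell cannot be told apart.

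Within the family, levels can be compared only per length, and are given as CPM per kb of annotated exon. Gimap4 was the highest, with 795 and 525 CPM per kb in Altre-KO and 545 and 603 CPM per kb in Altre-WT, rank 31 of the 23519 listed genes with an annotated length. Gimap3 came next, with 489 and 407 CPM per kb in Altre-KO and 454 and 416 CPM per kb in Altre-WT. Gimap6, Gimap8, Gimap9, Gimap1 and Gimap7 followed, with means over the 4 libraries of 269.7, 219, 127, 96.3 and 76.2 CPM per kb and ranks 73, 93, 209, 319 and 443. Gimap5 was the lowest, with 25.7 and 25.5 CPM per kb in Altre-KO and 23.7 and 24.9 CPM per kb in Altre-WT, rank 1897. On this length, that order held within every one of the 4 libraries. The ranges over the 4 libraries overlapped for the neighbours Gimap6 and Gimap8, Gimap9 and Gimap1, and Gimap1 and Gimap7, and did not overlap for the other 4 neighbouring pairs. With the longest annotated transcript as the length, the ranges of Gimap4 and Gimap3 also overlapped. Gimap9 then lay above Gimap7 in 3 of the 4 libraries only. Gimap1, Gimap7 and Gimap5, the lowest per kb of annotated exon, are the members that Gm28053 overlaps on the same strand. That match did not hold with the longest transcript, where Gimap1 lay above Gimap9 (means of 183 and 150 CPM per kb). The part of shared reads in the levels of Gimap1, Gimap7 and Gimap5 was not tested.

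**Figure D2:**
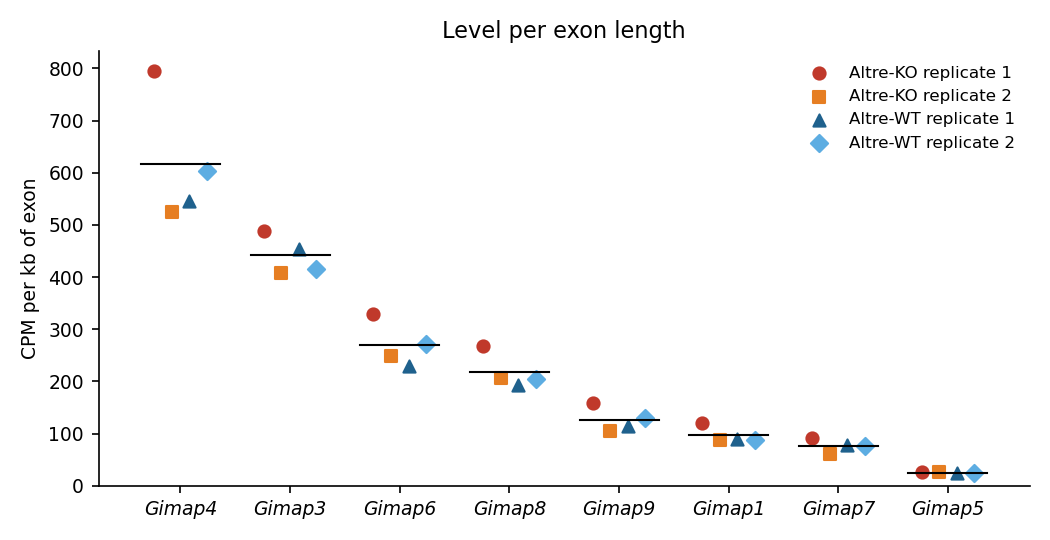
CPM per kb of annotated exon for each GIMAP gene, ordered by its mean over the 4 libraries (black line), with 1 point per library. The scale runs from Gimap4 at 525 to 795 CPM per kb down to Gimap5 at 23.7 to 25.7 CPM per kb.

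The near copies Gimap3 and Gimap5 stood far apart on this scale, with the uncertain split of their shared reads as a limit. Gimap3 exceeded Gimap5 per length 19.1-fold and 15.97-fold in the Altre-KO libraries, against 19.1-fold and 16.7-fold in the Altre-WT libraries. With the longest annotated transcript as the length, the ratios were 12.8 and 10.8 in Altre-KO and 12.9 and 11.2 in Altre-WT. Their windows of 250 bases before the start site, from RefSeq (GRCm38.p6), are shown 5′ to 3′ because this pair is so alike in the coding part. Capitals mark matches, on either strand, to the short motifs GGAAGT (bound by ETS factors) and GTAAACA (bound by FOXO factors).
Gimap3 (chr6:48770852-48771101, minus strand): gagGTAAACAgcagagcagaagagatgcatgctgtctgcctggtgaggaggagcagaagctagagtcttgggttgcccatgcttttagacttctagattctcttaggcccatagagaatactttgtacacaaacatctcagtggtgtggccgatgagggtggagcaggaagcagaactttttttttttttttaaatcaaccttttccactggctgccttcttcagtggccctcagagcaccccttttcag
Gimap5 (chr6:48745947-48746196, plus strand): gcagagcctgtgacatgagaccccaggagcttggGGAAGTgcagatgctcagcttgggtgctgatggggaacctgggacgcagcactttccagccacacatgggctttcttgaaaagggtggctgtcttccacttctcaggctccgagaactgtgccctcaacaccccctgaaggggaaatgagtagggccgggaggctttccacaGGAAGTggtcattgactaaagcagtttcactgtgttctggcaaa

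The Gimap5 window held GGAAGT 2 times and the Gimap3 window held GTAAACA once. Across 32851 windows of the same length in the reference, GGAAGT occurred in 19.7% and GTAAACA in 3.2%. Among the 9 windows of the 8 GIMAP genes (Gimap8 has 2), GGAAGT was found in 2 and GTAAACA in 1, and TGTGGT, a motif bound by RUNX factors, was found in 3, against 14.0% of all windows. TTCNNNGAA (STAT factors) was found in 2, against 7.0% of all windows, and TATAAA in 1, against 12.4%. These matches describe the letters and were not tested as binding sites.

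Among the members with a role in keeping lymphocytes alive, Gimap5 varied least between libraries. Gimap5 was at 107 and 106 CPM in Altre-KO and at 98.4 and 103 CPM in Altre-WT. Both Altre-KO values lay above both Altre-WT values, by a small margin, and the log2 fold change was 0.07 (SE 0.18, 95% interval -0.30 to 0.45, limma adjusted p = 0.999). These values rest on 180 to 348 estimated reads per library, the fewest in the family.

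Gimap3, the close relative of Gimap5 that has been described on mitochondria and the endoplasmic reticulum, was at 1261 and 1050.0 CPM in Altre-KO and at 1169 and 1072 CPM in Altre-WT. Altre-KO replicate 1 was the highest and Altre-KO replicate 2 the lowest of the 4, so the genotypes overlapped (log2 fold change 0.04, SE 0.15, 95% interval -0.27 to 0.34). Without Altre-KO replicate 1 the log2 fold change was -0.09.

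Gimap1, which mature T and B cells need in order to persist in mice, was at 368 and 271 CPM in Altre-KO and at 275 and 269 CPM in Altre-WT. Altre-KO replicate 1 was high and the other 3 libraries lay close together, with the genotypes overlapping, and with a log2 fold change of 0.21 (SE 0.16, 95% interval -0.12 to 0.55, limma adjusted p = 0.999) and of -0.01 without that library.

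Gimap6, whose product binds an ATG8 protein and takes part in autophagy, was at 1150.0 and 869 CPM in Altre-KO and at 800.0 and 953 CPM in Altre-WT. The genotypes overlapped, since Altre-KO replicate 2 lay between the Altre-WT libraries (log2 fold change 0.20, SE 0.16, 95% interval -0.13 to 0.52). Without Altre-KO replicate 1 it was -0.01.

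Gimap8, the member with 3 GTP-binding loops, was at 993 and 767 CPM in Altre-KO and at 717 and 759.6 CPM in Altre-WT. It had the largest log2 fold change of the family, 0.24 (SE 0.15, 95% interval -0.07 to 0.55, limma adjusted p = 0.999), and both Altre-KO values lay above both Altre-WT values, in Altre-KO replicate 2 by a small margin. Without Altre-KO replicate 1 its log2 fold change was 0.06.

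Gimap4, a member linked in mice to the pace of T cell death rather than to survival, was at 1461 and 964 CPM in Altre-KO and at 1001 and 1108 CPM in Altre-WT. It spread the most between the Altre-KO libraries, which lay above and below both Altre-WT libraries (log2 fold change 0.17, SE 0.17, 95% interval -0.17 to 0.52). The log2 fold change was -0.13 without Altre-KO replicate 1 and 0.47 without Altre-KO replicate 2.

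Gimap7, whose human counterpart can speed up GTP hydrolysis by other family members, was at 212 and 141 CPM in Altre-KO and at 179.9 and 176 CPM in Altre-WT. It was the only member with a log2 fold change below 0 (-0.04, SE 0.18, 95% interval -0.42 to 0.34), at -0.33 without Altre-KO replicate 1 and 0.25 without Altre-KO replicate 2. Gimap9 was at 259 and 174 CPM in Altre-KO and at 187 and 212 CPM in Altre-WT. Its Altre-KO libraries, too, were the highest and the lowest of the 4 (log2 fold change 0.09, SE 0.18, 95% interval -0.28 to 0.46), and without Altre-KO replicate 1 it was -0.20.

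**Figure D3:**
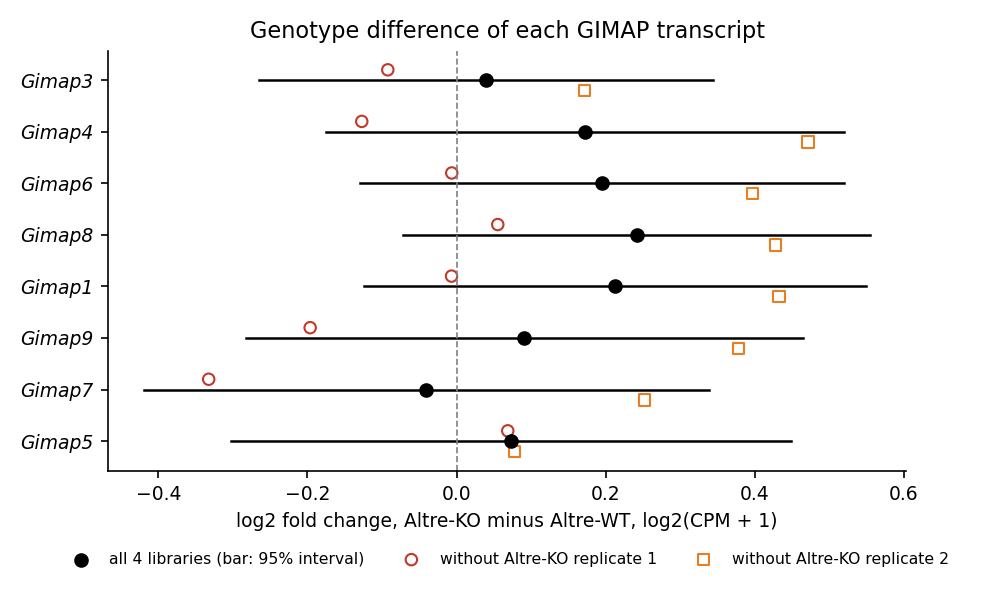
Log2 fold change of each GIMAP transcript, Altre-KO minus Altre-WT on the log2(CPM + 1) scale, with the 95% interval over all 4 libraries in black and the values without either Altre-KO library as open symbols. Every interval includes 0, and leaving out Altre-KO replicate 1 puts 6 of the 8 values below 0.

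All 8 members passed the filter on low values, and 0 of 8 passed an adjusted p of 0.05 by limma, where 4 of the 10486 tested genes did (0.0381%). At an unadjusted p under 0.05 the members numbered 0 by limma and 0 by limma-voom on estimated reads, against 3.66% of tested genes by limma. The 95% intervals of the 8 genes, each taken alone, lay between 0.748-fold and 1.47-fold of Altre-WT, on the CPM + 1 scale. Altre-KO values lay wholly above Altre-WT values for 2 of the 8 members, Gimap8 and Gimap5, and for 14.7% of tested genes, and wholly below for 0 members and 16.1% of tested genes. Log2 fold changes were above 0 for 7 members, with a median of 0.13, against 47.9% of tested genes with a median of -0.01. Without Altre-KO replicate 1, 2 of the 8 were above 0 and the median was -0.05. In the authors' deposited table, all 8 had an adjusted p of 1 and log2 ratios between -0.01 and 0.25, knockout over wild type.

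What the members did share was their highest library. Altre-KO replicate 1 was the highest of the 4 libraries for 8 of 8 members, against 30.7% of tested genes and 34.5% of the 2328 tested genes with a mean of at least 100 CPM, a level that all 8 members reach. The CPM ratio of Altre-KO replicate 1 over Altre-KO replicate 2 was 1.51 for Gimap4, 1.503 for Gimap7, 1.49 for Gimap9, 1.36 for Gimap1, 1.32 for Gimap6, 1.30 for Gimap8, 1.201 for Gimap3 and 1.01 for Gimap5. Their median was 1.34, against a median of 1.03 and an upper quartile of 1.16 over those 2328 genes. Between Altre-WT replicate 2 and replicate 1 the median ratio of the members was 1.06, against 1.01 over those genes. Altre-KO replicate 1 is also the library with 32.8% of its reads on listed genes and with the lowest Foxp3. Of 8 myeloid markers, 5 were highest in it, though the 8 summed to 294 CPM in it and to 297 CPM in Altre-WT replicate 2. The part of these differences in the GIMAP values was not tested.

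**Figure D4:**
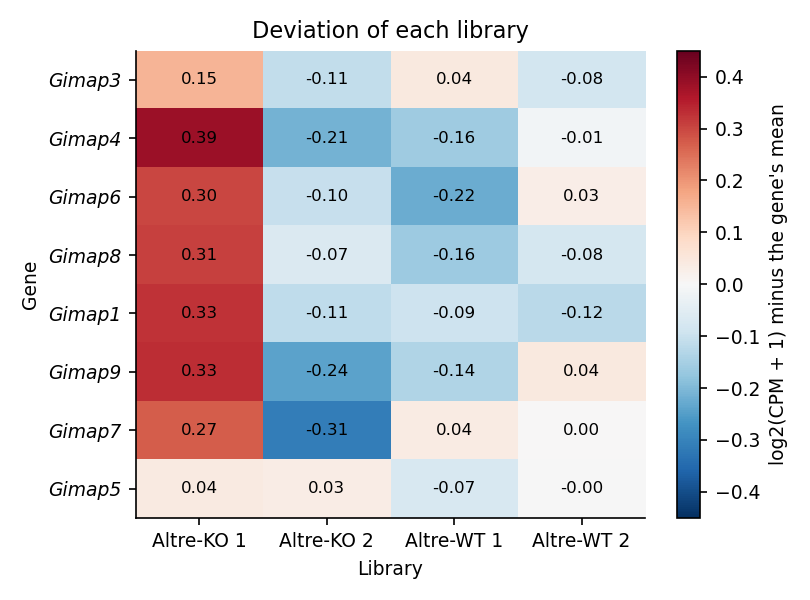
Log2(CPM + 1) of each GIMAP transcript in each library, minus that gene's mean over the 4 libraries, as a colour and a printed value. Altre-KO replicate 1 is above the mean for all 8 genes, from 0.04 for Gimap5 to 0.39 for Gimap4.

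The same 4 genes supplied most of the family's CPM in every library. Gimap4 supplied 25.1% and 22.2% of the family's CPM in Altre-KO and 22.6% and 23.8% in Altre-WT. The share of Gimap3 was 21.7% and 24.2% in Altre-KO and 26.4% and 23.04% in Altre-WT, and that of Gimap6 was 19.8% and 20.02% in Altre-KO and 18.1% and 20.48% in Altre-WT. Gimap8 supplied 17.1% and 17.7% in Altre-KO and 16.2% and 16.3% in Altre-WT, and Gimap1 6.33% and 6.24% in Altre-KO and 6.21% and 5.79% in Altre-WT. Both shares were the higher in Altre-KO, by small margins. Gimap7 was the other way round, with 3.65% and 3.25% in Altre-KO and 4.06% and 3.78% in Altre-WT, and the shares of the other 5 genes overlapped between genotypes. Such non-overlap is common with 2 libraries per genotype. In CPM, rather than shares, it was seen in either direction for 30.8% of tested genes. These shares depend on gene length and were not tested.

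Genes with the most similar pattern over the 4 libraries were sought by the Euclidean distance between centred log2(CPM + 1) values and the mean profile of the members, among 7101 genes with a mean of at least 20 CPM. The nearest were Eif4a2, Snx5, Uhrf2, Calu and Litaf, at distances of 0.011 to 0.032. Eif4a2, an RNA helicase of translation initiation, was at 839 and 629 CPM in Altre-KO and at 649 and 686 CPM in Altre-WT. Members of the family were 0.12 to 0.28 from their own mean profile, with Gimap5 the farthest. The 5 genes were picked for the smallest distances among 7101, so their distances cannot be set against those of the members. The points share 4 libraries only, so the distances are a description.

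Along the chromosome, the neighbours of the cluster did not share one direction. Of 23 listed genes within 500 kb on either side, 12 were tested. Of the 12, 8 had a log2 fold change above 0 and 4 below, with a median of 0.09, against 47.9% above 0 over all tested genes. None of the 12 passed by limma over all genes, and 2 had an unadjusted p under 0.05, against 3.66% of all tested genes. Igf2bp3, which encodes an RNA-binding protein, was at 7.96 and 10.2 CPM in Altre-KO and at 4.92 and 2.10 CPM in Altre-WT (log2 fold change 1.22, SE 0.56, limma adjusted p = 0.999). Zfp862-ps, a transcribed pseudogene, was at 12.6 and 23.7 CPM in Altre-KO and at 41.0 and 21.9 CPM in Altre-WT, with overlapping genotypes. Tmem176b, a membrane protein gene 63.0 kb beyond Gimap3, was at 7.65 and 6.35 CPM in Altre-KO and at 1.09 and 5.04 CPM in Altre-WT. Igf2bp3, Tmem176b and Sspo reached the low-value filter (4.22 CPM in at least 2 libraries) in both Altre-KO libraries but not in both Altre-WT libraries. Sspo was at 6.43 and 11.4 CPM in Altre-KO and at 3.83 and 6.31 CPM in Altre-WT. The filter thus favoured higher Altre-KO values for these genes, and they rest on few reads. All of them are among the 8 above 0, so that count carries the same limit. Altre-KO replicate 1 was the highest library for 3 of these 12 neighbours, against 30.7% of all tested genes and 8 of 8 GIMAP genes. These differences were not tested.

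**Figure D5:**
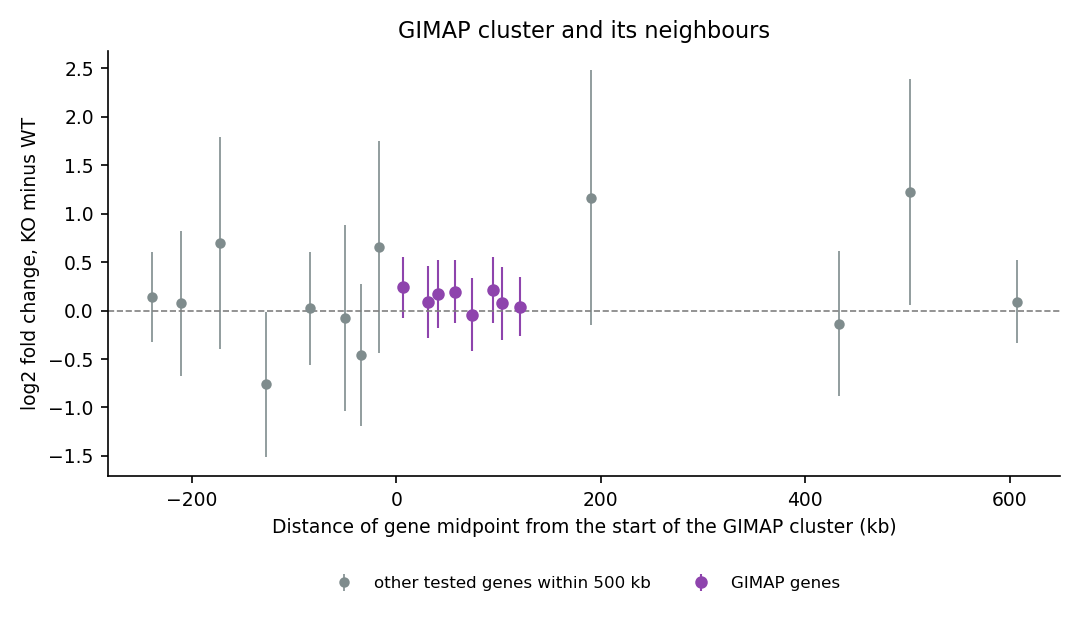
Log2 fold change, Altre-KO minus Altre-WT, against the distance of each gene's midpoint from the start of the GIMAP cluster in kb, with 95% intervals. The GIMAP genes (purple) lie between -0.04 and 0.24, and the 12 tested neighbours (grey) lie between -0.76 and 1.22 with mostly wider intervals. The highest, Igf2bp3, rests on few reads.

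Of the BCL2 family, the regulators of mitochondrial cell death with which GIMAP proteins have been linked, 14 of 17 genes were tested. None passed by limma over all genes, and 0 of 14 had an unadjusted p under 0.05, against 3.66% of all tested genes. Log2 fold changes were above 0 for 9 and below 0 for 5, with a median of 0.14, against 47.9% above 0 over all tested genes. Bbc3, which encodes the death-promoting protein PUMA, was at 23.9 and 18.2 CPM in Altre-KO and at 9.84 and 16.8 CPM in Altre-WT (log2 fold change 0.65, SE 0.38, 95% interval -0.12 to 1.43). Both Altre-KO values were the higher. Bmf, another death promoter, was at 16.2 and 19.9 CPM in Altre-KO and at 9.84 and 14.3 CPM in Altre-WT, and Pmaip1, which encodes NOXA, at 9.80 and 20.8 CPM in Altre-KO and at 18.1 and 23.5 CPM in Altre-WT. Altre-KO replicate 1 was the highest library for 5 of the 14, against 30.7% of all tested genes.

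Of the ATG8 family, the autophagy proteins that GIMAP6 is linked to, 4 of 5 genes were tested. None passed by limma, and 0 of 4 had an unadjusted p under 0.05, against 3.66% of all tested genes. Gabarapl2, which encodes the ATG8 protein bound by GIMAP6, was at 29.4 and 31.8 CPM in Altre-KO and at 35.5 and 37.4 CPM in Altre-WT (log2 fold change -0.25, SE 0.27, 95% interval -0.80 to 0.31). Gabarap was at 151 and 155 CPM in Altre-KO and at 133 and 151 CPM in Altre-WT, and Gabarapl1 at 27.6 and 26.7 CPM in Altre-KO and at 22.4 and 26.1 CPM in Altre-WT. The median of the 4 log2 fold changes was 0.01, with 2 above 0 and 2 below, against 47.9% above 0 over all tested genes.

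Genes of resting and recirculating T cells, the state in which GIMAP genes are typically high, went both ways. Of 14 listed, 13 were tested and none passed by limma over all genes, with 1 at an unadjusted p under 0.05, against 3.66% of all tested genes. Of the log2 fold changes, 6 were above 0 and 7 below, with a median of -0.03, against 47.9% above 0 over all tested genes. Altre-KO values lay wholly below Altre-WT values for 4 of the 13, against 16.1% of tested genes. They lay wholly above for 1 of the 13, against 14.7%. Lef1, a transcription factor gene of naive T cells, was at 75.6 and 72.0 CPM in Altre-KO and at 95.7 and 107 CPM in Altre-WT (log2 fold change -0.45, SE 0.19, limma adjusted p = 0.999). Both Altre-KO values were the lower. Il7r, the receptor for the survival cytokine interleukin-7, was at 202 and 240.9 CPM in Altre-KO and at 278 and 269 CPM in Altre-WT. Its Altre-KO values, too, were the lower. Tcf7, a partner of Lef1, was at 146 and 238 CPM in Altre-KO and at 208 and 261 CPM in Altre-WT, with overlapping genotypes. Altre-KO replicate 1 was the highest library for 3 of these 13 genes, against 30.7% of all tested genes.

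Markers of other cells that can carry GIMAP transcripts were also read in these libraries. The 3 NK cell markers summed to 8.59 and 6.77 CPM in Altre-KO and to 11.3 and 3.36 CPM in Altre-WT, and the 2 CD8 markers to 6.13 and 5.08 CPM in Altre-KO and to 7.11 and 9.25 CPM in Altre-WT. The 7 endothelial markers summed to 176 and 216 CPM in Altre-KO and to 181 and 224 CPM in Altre-WT, of which Pecam1, also a leukocyte gene, gave 174 and 208 CPM in Altre-KO and 172 and 215 CPM in Altre-WT. The vessel marker Cdh5 was at or below 2.94 CPM in every library. Myeloid markers, 8 genes, summed to 294 and 168 CPM in Altre-KO and to 185 and 297 CPM in Altre-WT, and were thus high in one library of each genotype, Altre-KO replicate 1 and Altre-WT replicate 2. The highest of them, Lyz2, was at 165 and 66.1 CPM in Altre-KO and at 102 and 155 CPM in Altre-WT. Of the 8 myeloid markers, 5 (Lyz2, Adgre1, Cd68, C1qa and C1qb) were highest in Altre-KO replicate 1. Of the 5 hepatocyte markers, Alb, Ttr and Cyp3a11 were listed at 0 in all 4 libraries, and the 3 stellate cell markers summed to 7.11 CPM or less. The part of other cells in the GIMAP values was not tested.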

How the data were processed

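RNA from liver Tregs (2 Altre-KO and 2 Altre-WT libraries) was extracted with a micro-scale kit and made into libraries with a SMARTER mRNA kit, per the labels' protocols. STAR, cutadapt and DESeq2 are named with build mm10 in the submitters' processing notes, with no role or version; the counter and annotation were not found there. The authors' deposited table holds RPM (scaled to more reads than those on listed genes, plus 0.0001, as read from the values) and, per the file headers, CPM. It also holds the authors' mean signal per genotype, their log2 ratio, and the p-value of an unnamed test before and after adjustment.

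Reads were estimated from the smallest common RPM step. Of values above 0, 92.9% to 93.7% were whole within 0.02 of a read, so no count model was run as the main test. The 8 members were within 0.11 of a whole read in every library. A read was worth 0.306 to 0.547 CPM.

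The whole table was fitted with limma 3.58.1 (R 4.3.3), trended variances, on log2(CPM + 1), with genotype as the only term. Genes with at least 10 estimated reads at the median depth (4.22 CPM) in at least 2 libraries were kept (10486), and p-values were adjusted by Benjamini-Hochberg over all of them (threshold 0.05). Fold changes on this scale understate low genes. SEs draw largely on the variance trend (20.8 prior degrees of freedom). With 2 libraries against 2, an exact permutation test cannot go below p = 0.333, so none was run.

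Symbols were matched to GENCODE M21 (23519 of 24452). All 8 promoters were matched in RefSeq. Named genes were the members, the 3 smallest p in each list and the 5 nearest profiles. Sspo was named only for the low-value filter. Members and lists were chosen with earlier results of these data known. A marker list is not reported here. Figures used matplotlib 3.10.9.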

Additional observations from a re-analysis of the deposited data

How the results depend on the processing

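None of the 8 GIMAP genes passed in any of the 11 alternatives, where their adjusted p lay between 0.244 and 1.00. Of 88 member results, 81 kept their direction and 7 turned, all on leaving out 1 library. Over these leave-one-out fits the log2 fold changes ran from -0.0068 to 0.43 for Gimap1, -0.0923 to 0.17 for Gimap3, -0.13 to 0.47 for Gimap4, -0.0065 to 0.40 for Gimap6, -0.33 to 0.25 for Gimap7 and -0.20 to 0.38 for Gimap9. Without Altre-WT replicate 2 Gimap3 was at -0.02. Their median ran from -0.0495 (without Altre-KO replicate 1) to 0.39 (without Altre-KO replicate 2), and the log2 ratio of summed CPM, 0.16, from -0.0645 to 0.36. Where a single library stands for a genotype, it is assumed to vary like the others. Of all tested genes 6 to 16 passed in these fits, against 4, and 2 passed with a pseudocount of 0.1.

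The BCL2 family's median was 0.0169 among genes averaging 20 CPM or more and 0.0545 to 0.15 on leaving out a library. That of the resting T cell genes was -0.0078 with upper-quartile scaling, 0.0006 with limma-voom and -0.11 to -0.0631 on leaving out a library, and that of the neighbours -0.0026 to 0.20. With the longest transcript as length, 6 of 8 members kept their place in the order of levels. Gimap1 and Gimap9 changed places. Replicate numbers have no stated pairing, and deviations of same-numbered libraries did not correlate (r = -0.010 across genes). With the replicate number as a block 6 genes passed, no GIMAP gene among them. Depth limits Gimap5 most.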
